A study of Gallus gallus with 4 samples.

Results

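The genes described here are those whose response to a FOXL2 plasmid was higher in preovulatory than in prehierarchical granulosa cells of the chicken. They were chosen from the measured values. For each gene the log2 ratio of the FOXL2 library to its control library, on the scale log2(FPKM + 1), was taken in each phase, and the gap is the preovulatory ratio minus the prehierarchical ratio. A gap of at least 1.5 log2 units, about 2.83-fold, was found for 84 of the 10639 genes whose 4 libraries averaged 1 FPKM or more, which is 0.79% of them; the tables list 13819 genes in all. FPKM is the number of fragments scaled by transcript length and by all mapped fragments. Because all 4 values of a gene entered the rule, the gap and its parts are given as descriptions and carry no test.

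The 4 groups hold 1 library each, and the values therefore have no replicate error and no test. Preovulatory granulosa cells came from F2 to F4 follicles and prehierarchical cells from small yellow follicles (SYF), all from 26-week-old chickens. Each kind of cell was cultured at 39°C with 5% fetal bovine serum for 18 h and then given pcDNA3.1-FOXL2 or pcDNA3.1 alone as the control, by a lipid reagent. RNA was taken 48 h later, so the control cells share the transfection and the plasmid backbone. The sources used here do not say if a library holds 1 bird or a pool.

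In the laying hen, granulosa cells form the epithelial layer next to the oocyte. In small yellow follicles they are still little differentiated and make little steroid, and after a follicle is selected into the hierarchy they become the main source of progesterone before ovulation. FOXL2 is a forkhead transcription factor that vertebrate granulosa cells express and that helps to maintain ovarian cell identity in mammals.

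The files give Ensembl identifiers with no gene names, and 0 of the 84 could be matched to an entry of the RefSeq gene table. Functions, cell type markers, sequences and the level of FOXL2 itself were therefore not analysed here, and the plasmid and cell labels stand without a check from the data. A few of the 84 genes are printed by identifier. The tables list between 12600 and 12724 genes per library, with a lowest listed value of 0.01 FPKM, and a gene absent from a table was taken as listed at 0. Fragment counts were not used here, so the worth of 1 fragment was only guessed from genes chosen for nearly equal listed values. In 308 genes with 1 transcript identifier whose 2 or 3 listed values lay within 5% of each other, the lowest value had a median of 0.23 FPKM (quartiles 0.12 and 0.37). If that value is 1 fragment, which was not checked, 1 FPKM stands for about 4.35 fragments in such genes. Values near 1 FPKM would then come from a handful of fragments.

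The 84 genes were mostly of low abundance, and their median level was lower in the preovulatory control and prehierarchical FOXL2 libraries than in the other 2. Their median level was 2.75 FPKM in the preovulatory control and 5.60 FPKM with FOXL2. In prehierarchical cells the median was 4.81 FPKM in the control and 1.81 FPKM with FOXL2. The median was thus higher with FOXL2 in preovulatory cells and lower with it in prehierarchical cells. The summed FPKM of the 84 genes made up 0.0915% of the total with control and 0.191% with FOXL2 in preovulatory cells, and 0.173% and 0.0846% in prehierarchical cells.

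**Figure D1:**
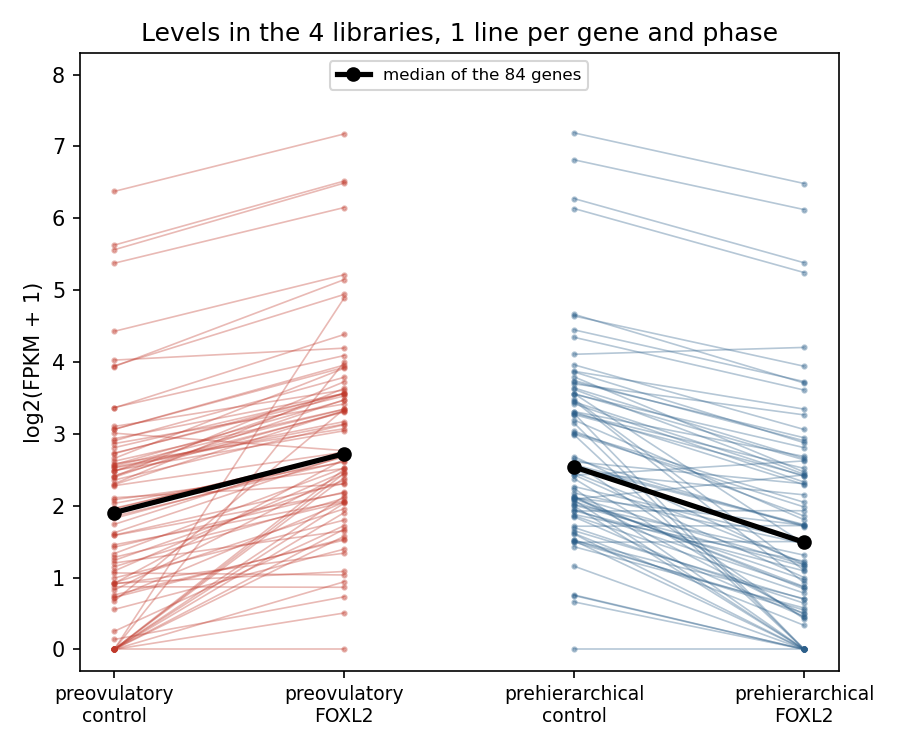
Levels of the 84 genes as log2(FPKM + 1) on the vertical axis in the 4 libraries on the horizontal axis, with 1 thin line per gene within a phase and the median in black. Lines mostly rise from control to FOXL2 in preovulatory cells (red; median 2.75 to 5.60 FPKM) and mostly fall in prehierarchical cells (blue; median 4.81 to 1.81 FPKM).

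The gap came from both phases in most of these genes. The preovulatory ratio was above 0 in 80 of the 84 genes, against 49.8% of all genes, and the prehierarchical ratio was below 0 in 77, against 57.3%. Both held in 73 genes, against 34% of all genes. The median log2 ratio was 0.83 in preovulatory cells (quartiles 0.62 and 1.13) and -0.95 in prehierarchical cells (quartiles -1.26 and -0.73), while the medians over all 10639 genes were 0.00 and -0.05. For the 64 genes that all 4 tables list, the medians were 0.80 and -0.95, and their gaps ran from 1.504 to 3.35. Over all 84 genes the gap had a median of 1.82 and reached 6.08. The prehierarchical change was the larger in size in 44 of the 84, against 51% of all genes. The rule favours a rise in preovulatory and a fall in prehierarchical cells, so these counts describe the set and give no separate evidence. In this set the gap was made up of falls in prehierarchical cells as well as rises in preovulatory cells.

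In 47 of the 84 genes the preovulatory FOXL2 and prehierarchical control values both lay above the other 2 values, against 9.06% of all genes. The rule favours this pattern, so the count describes the set and gives no separate evidence. In the headers, the value columns of the 2 libraries at the low end of these genes have a further number after the plasmid's name, 1 in the preovulatory control and 2 in prehierarchical cells with FOXL2, and the columns of the other 2 libraries have no such suffix. The sources used here do not say what the numbers mark. A technical difference between these pairs of libraries and a plasmid response that differs between phases cannot be told apart.

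**Figure D2:**
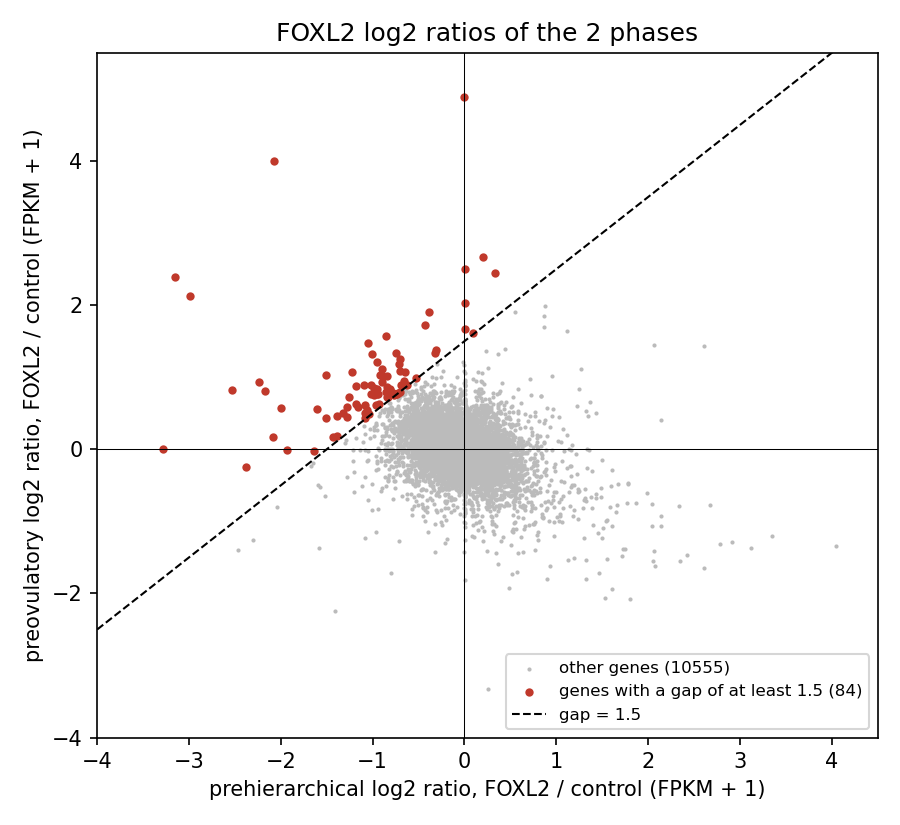
Log2 ratio of FOXL2 to control (FPKM + 1) in prehierarchical cells (horizontal) and in preovulatory cells (vertical) for 10639 genes, with the 84 genes in red above the dashed line of gap 1.5. Most of the red points (73) lie above 0 on the vertical axis and below 0 on the horizontal axis.

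By the size of each phase's change, the 84 genes fell into 4 classes. With the FOXL2 plasmid, 29 were higher by 2-fold or more in preovulatory cells, against 0.498% of all genes, and 36 were at least 2-fold lower in prehierarchical cells, against 0.658%. Both applied to 7 genes, or 0.0658% of all genes. That share is these same 7, because every gene past the filter with both changes meets the rule. The preovulatory rise alone reached 2-fold in 22 genes, against 0.432% of all genes, and the prehierarchical fall alone in 29, against 0.592%. In the remaining 26, neither the preovulatory rise nor the prehierarchical fall reached 2-fold, against 98.9% of all genes. That share of all genes includes genes that changed 2-fold the other way. The rule favours both changes, so the counts of all 4 classes describe the set and give no separate evidence. The ratios of the 26 ran from 0.61 to 0.99 in preovulatory and from -0.99 to -0.53 in prehierarchical cells. Those 26 had a median mean level of 7.05 FPKM, against 4.25, 3.02 and 4.55 FPKM for the genes 2-fold higher only, 2-fold lower only and 2-fold apart in both phases.

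The 7 that passed 2-fold in each phase had a lower quartile of 0 FPKM in the preovulatory control and in the prehierarchical FOXL2 library. Some of the 7 thus rest on absences. The 2 of highest mean level are described. ENSGALG00000028909 had 4.29 FPKM in the preovulatory control and 12.2 FPKM with FOXL2, and 8.87 and 3.90 FPKM in the prehierarchical control and FOXL2 libraries. Its log2 ratios were 1.32 and -1.01. ENSGALG00000026980 had 3.90 and 8.99 FPKM in preovulatory cells and 5.42 and 1.26 FPKM in prehierarchical cells, in the same order, with log2 ratios of 1.03 and -1.51. In both genes the 2 high values are those of the preovulatory FOXL2 and prehierarchical control libraries. Their gaps of 2.33 and 2.53 were 1.53 and 1.39 with a pseudocount of 5 FPKM, where the second is under the threshold, and 2.65 and 3.21 with one of 0.1 FPKM.

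Some genes of the set had a wide change in preovulatory cells and a smaller one in prehierarchical cells. Among those in all 4 tables that averaged 5 FPKM or more, ENSGALG00000027059 had the highest preovulatory ratio. It stood at 0.89 FPKM with control and 5.26 FPKM with FOXL2 in preovulatory cells, against 11.95 and 8.60 FPKM in prehierarchical cells. Its log2 ratios were 1.73 and -0.43. ENSGALG00000005720 was next, at 0.77 and 4.44 FPKM in preovulatory cells and 16.2 and 17.4 FPKM in prehierarchical cells. Its prehierarchical values were close, with a log2 ratio of 0.10, and its gap of 1.52 came from the preovulatory ratio of 1.62. Both genes were higher in both prehierarchical libraries than in either preovulatory library. By the guess above, their preovulatory control values of 0.89 and 0.77 FPKM would come from a handful of fragments. Their gaps of 2.16 and 1.52 were 1.12 and 0.63 with a pseudocount of 5 FPKM, and 2.91 and 2.28 with one of 0.1 FPKM. With the libraries scaled to equal median log2 values the gaps were 2.08 and 1.44, the second under the threshold.

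Others changed mainly in prehierarchical cells. ENSGALG00000028144 had 4.59 and 8.87 FPKM in preovulatory control and FOXL2 cells and 9.99 and 0.90 FPKM in prehierarchical control and FOXL2 cells, and its gap of 3.35 is the widest among genes that all 4 tables list. Its prehierarchical FOXL2 value is the lowest of the 4 by a wide margin. ENSGALG00000028667 had 7.05 and 5.80 FPKM in preovulatory cells and 10.2 and 1.14 FPKM in prehierarchical cells. In this gene the preovulatory value was lower with FOXL2 too, with a log2 ratio of -0.24, and the gap of 2.14 came from the prehierarchical ratio of -2.38. The gaps of these 2 genes were 1.88 and 1.15 with a pseudocount of 5 FPKM, and 4.27 and 2.77 with one of 0.1 FPKM.

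Absence from a table was frequent in the set. At least 1 table did not list 20 of the 84 genes, against 1.16% of all genes. Of these, 13 were missing in the preovulatory control, against 0.479% of all genes, and 13 in prehierarchical cells with FOXL2, against 0.32%. Both libraries lacked 6 genes, or 0.0564% of all genes, and that share is these same 6. The gaps of these 6 ran from 3.18 to 6.08, so the widest gap of the set rests on absences. Preovulatory cells with FOXL2 lacked 1, against 0.376%, and the prehierarchical control lacked 1, against 0.273%. A gene of this mean level that is listed at 0 in those 2 libraries meets the rule almost by construction. Only 2 genes past the filter, or 0.0188%, were listed in a single table, and both are in the set. ENSGALG00000027113 stood at 28.7 FPKM in the preovulatory FOXL2 library and was listed at 0 in the other 3. ENSGALG00000027372 stood at 8.71 FPKM in the prehierarchical control and was listed at 0 elsewhere, so it did not differ between the preovulatory libraries. No fold is given for values listed at 0. Without the 20 genes, 18 of 64 were higher by 2-fold or more with FOXL2 in preovulatory cells and 26 of 64 at least 2-fold lower in prehierarchical cells; genes that all 4 tables list and that passed these limits made up 0.338% and 0.47% of all genes.

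The set was thinly spread over the abundant genes. A mean of at least 10 FPKM was found for 10 of the 84 genes, against 66.4% of all genes, and a mean of at least 30 FPKM for 5, against 32%. By class of mean level, genes of the set made up 2.33% of the 1289 genes from 1 to 3 FPKM, 1.93% of the 2284 genes from 3 to 10 FPKM, 0.137% of the 3661 genes from 10 to 30 FPKM and 0.147% of the 3405 genes at 30 FPKM or more. The SD of the gap over all genes of a class was 0.78, 0.68, 0.49 and 0.43 in the same order, so a gap of 1.5 is a rarer value in the abundant classes. The 144 genes with a gap of -1.5 or less, 1.35% of all genes, form the other direction and had 53 with a mean of at least 10 FPKM and 28 with at least 30 FPKM. Their median mean level was 5.31 FPKM, against 4.72 FPKM for the 84. The difference between the 2 sets was not tested, since both were chosen from the same values.

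**Figure D3:**
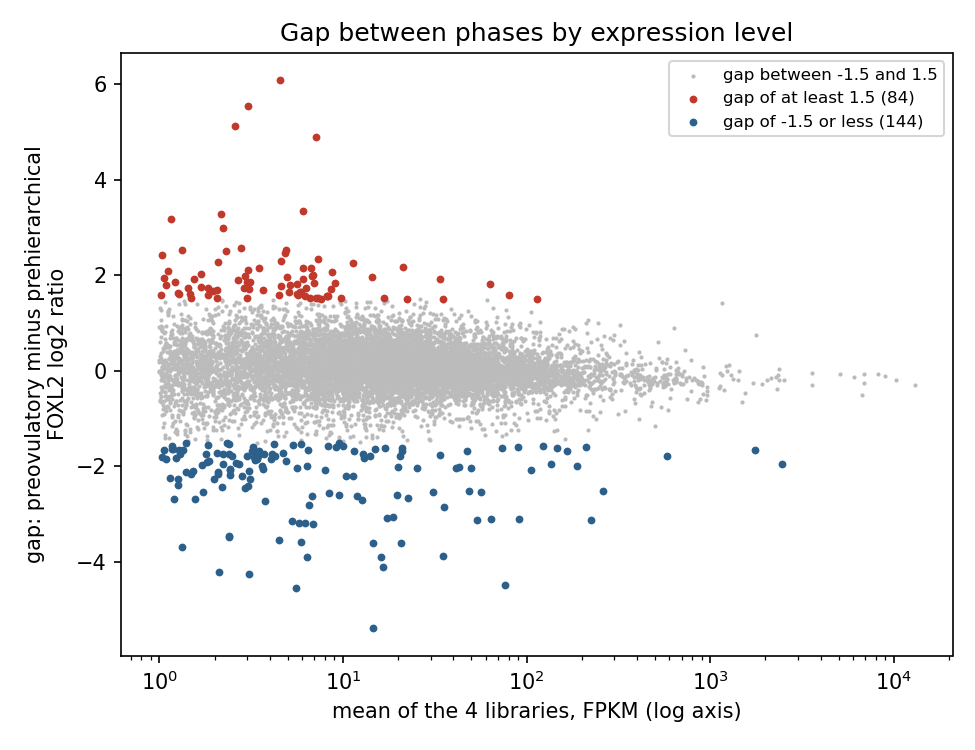
Gap (preovulatory minus prehierarchical FOXL2 log2 ratio, vertical) against the mean of the 4 libraries in FPKM (horizontal, log axis) for 10639 genes. The 84 genes in red lie mostly under 10 FPKM (74 of them), whereas 53 of the 144 genes of the other direction, in blue, lie at 10 FPKM or more.

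The 5 genes that averaged 30 FPKM or more are the best covered per length and were alike in the size of their changes. Their gaps ran from 1.504 to 1.91, near the threshold that chose them. Their preovulatory log2 ratios ran from 0.77 to 1.02 and their prehierarchical ratios from -0.89 to -0.69. ENSGALG00000012735, the most abundant, had 81.9 and 143.4 FPKM in preovulatory control and FOXL2 cells and 144.8 and 88.5 FPKM in prehierarchical control and FOXL2 cells. The 2 high values differ by little, as do the 2 low ones. ENSGALG00000009170 had 48.4 and 90.7 FPKM in preovulatory cells and 111.4 and 68.6 FPKM in prehierarchical cells. Its log2 ratios were 0.89 and -0.69. The other 3 were at 46.2, 88.9, 76.3 and 40.7 FPKM, at 9.27, 19.9, 69.3 and 36.9 FPKM, and at 40.5, 70.0, 19.3 and 11.2 FPKM in the order preovulatory control, preovulatory FOXL2, prehierarchical control and prehierarchical FOXL2. All 5 were higher with FOXL2 in preovulatory cells and lower with it in prehierarchical cells, and they differed in which phase had more of the transcript. ENSGALG00000012735 lies at the threshold with a gap of 1.504. Its gap was 1.42 once the libraries were scaled to equal median log2 values and 1.45 with a pseudocount of 5 FPKM, both under the threshold. The gap of ENSGALG00000009170, 1.58, was 1.501 and 1.504 in the same order, just inside. With a pseudocount of 0.1 FPKM the gaps of these genes were 1.52 and 1.60. The gene at 40.5 FPKM in the preovulatory control had a gap of 1.509. It was not in the set with a pseudocount of 5 FPKM.

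The values at the threshold show no break. The 3 genes just inside had gaps of 1.504, 1.507 and 1.509, and the 3 just outside had gaps of 1.495, 1.491 and 1.478. The genes just outside had means of 26.3, 60.9 and 4.18 FPKM.

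Between phases, the median gene of the set was lower in preovulatory cells with the control plasmid and higher there with FOXL2. The log2 ratio of preovulatory to prehierarchical cells had a median of -0.80 with the control plasmid and 1.18 with FOXL2, where the medians over all genes were 0.17 and 0.23. In the control libraries 35 of the 84 genes were at least 2-fold lower in preovulatory cells, against 8.09% of all genes, and 2 were at least 2-fold higher, against 7.41%. In the FOXL2 libraries 49 were higher in preovulatory cells by 2-fold or more, against 9.37%, and 1 was at least 2-fold lower, against 7.69%. These ratios are built from the same 4 values as the gap and give no separate evidence for it.

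The order of the phases turned in 54 of the 84 genes, from lower in preovulatory cells with control to higher with FOXL2, against 10.9% of all genes. In 6 of these the difference was at least 2-fold with both plasmids. They are 0.0564% of all genes, and every gene past the filter with that pattern meets the rule. Their values ran from 0 to 0.99 FPKM in the preovulatory control and from 0 to 0.56 FPKM in prehierarchical cells with FOXL2. These 6 thus rest on absences and values near 0. The preovulatory level was the lower one with both plasmids, or equal with FOXL2, in 11 genes, against 27.5% of all genes, and their median phase ratio went from -2.63 to -0.36. It was the higher one with both, or equal with control, in 19 genes, against 53.1%, and their median went from 0.43 to 2.29. The gap is also the phase ratio with FOXL2 minus that with control. The rule therefore fixes a smaller distance between phases with FOXL2 in the 11 and a larger one in the 19. After scaling to equal median log2 values, the 54, 11 and 19 genes became 53, 17 and 14.

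Among genes of the set that averaged at least 5 FPKM and that all 4 tables list, ENSGALG00000014742 had the highest mean phase ratio. It stood at 7.35 FPKM in preovulatory and 1.87 FPKM in prehierarchical control cells, and at 14.5 and 0.42 FPKM in the FOXL2 cells. The log2 phase ratio was 1.54 with control and 3.45 with FOXL2. ENSGALG00000005720, given above, had the lowest, with phase ratios of -3.28 and -1.76. The first gene was further apart between phases in the FOXL2 libraries and the second nearer, as a positive gap requires of ratios with these signs.

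**Figure D4:**
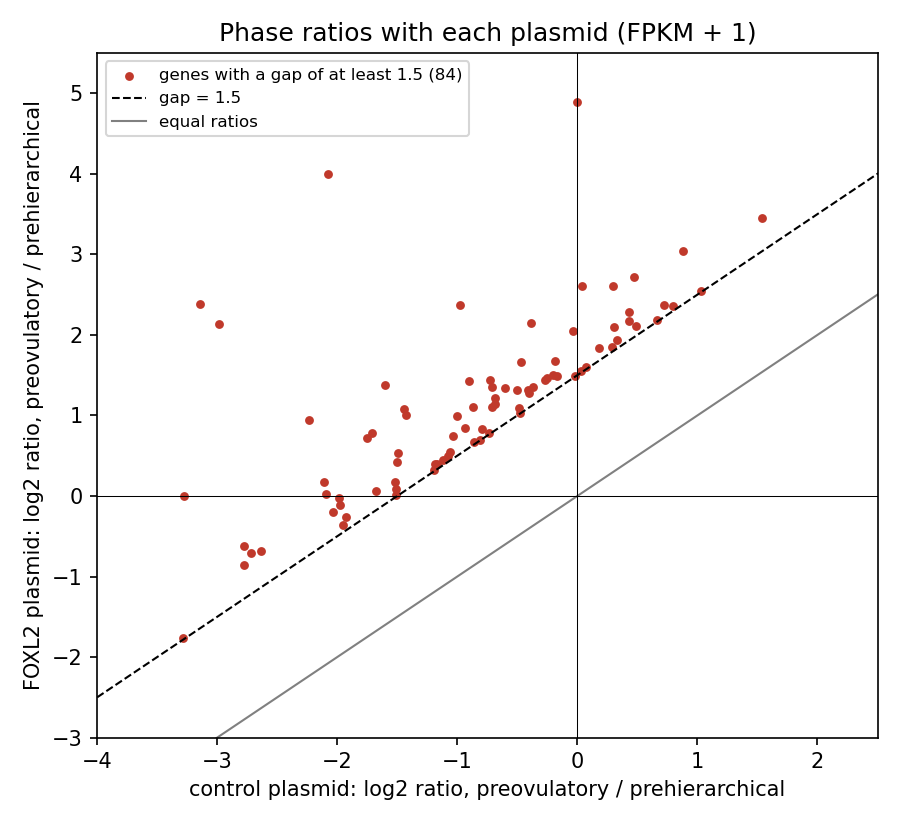
Log2 ratio of preovulatory to prehierarchical cells (FPKM + 1) with the control plasmid (horizontal) and with the FOXL2 plasmid (vertical) for the 84 genes; the dashed line marks a gap of 1.5 and the grey line equal ratios. The upper left region, above 0 on the vertical and below 0 on the horizontal axis, holds the 54 genes whose phase order turned.

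A property of the annotation that the rule did not use was near the background. Of the 84 genes, 5 had 2 or more transcript identifiers, against 5.21% of all genes.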

How the data were processed

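RNA sequencing libraries of 4 groups, 1 per group, were analysed. Each library has 1 table, in which the authors deposited FPKM values by Ensembl identifier, as the file headers state. Bowtie, RSEM and build galGal4 are named in the submitters' processing notes; the sources used here give no versions, settings or use of strand. RSEM divides fragments among alike transcripts, and values of genes with near-identical copies are less certain for it. Absolute depth is unknown.

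The tables were joined on the identifier, absent genes were set to 0, and ratios were taken on log2(FPKM + 1) with no further scaling. This scale gives a low gene a log2 ratio smaller in size than its listed FPKM values alone would give. With 1 library per group no test was made; differences are described by size, beside the share of all genes past the same limit. Python 3.11.15, pandas 2.3.3, numpy 2.4.6 and matplotlib 3.10.9 were used.

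The genes and lists were chosen with earlier results of these data known. None of the identifiers matched the reference table, so the 13 gene lists set up by symbol were not analysed. The rule for named genes allowed over 30 names, those of the widest gaps included. Without symbols, only some extremes were printed, a choice made after the values were seen. Printed were the 2 of highest mean overall and among genes 2-fold apart in both phases. The 2 highest preovulatory and 2 lowest prehierarchical ratios were printed too. So were the 2 ends of the mean phase ratio and the 2 genes listed in a single table. The gene with the widest gap, 6.08, was not printed by identifier. The alternatives were pseudocounts of 0.1 and 5 FPKM, no filter and one of 5 FPKM, equal medians, genes in all 4 tables, and gaps of 1 and 2.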

Additional observations from a re-analysis of the deposited data

Results flagged for a closer look

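The 7 genes at least 2-fold higher with FOXL2 in preovulatory cells and at least 2-fold lower in prehierarchical cells were singled out because the single library pair of each phase moved the opposite way. The rule takes in every gene past the filter with such a pattern. The difference between phases was not tested, since each group has 1 library. Of the genes printed by identifier, ENSGALG00000028909 with a gap of 2.33 and ENSGALG00000026980 with a gap of 2.53 had this pattern. All 4 tables list both, whereas some of the 7 were listed at 0 with control in preovulatory cells and with FOXL2 in prehierarchical cells.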

How the results depend on the processing

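The size of the set depends on the weight given to low values. The number of genes, the number 2-fold higher in preovulatory cells and the number 2-fold lower in prehierarchical cells were 84, 29 and 36. They were 229, 106 and 117 with a pseudocount of 0.1 FPKM, 10, 3 and 3 with a pseudocount of 5 FPKM, and 39, 10 and 11 with a filter at 5 FPKM. Among genes in all 4 tables, 18 were 2-fold higher in preovulatory cells. A gap of at least 1 gave 340 genes and a gap of at least 2 gave 27. Without a filter the set had 102 genes, with equal medians 66, and 64 among genes that no table lacks, each within 1.5 times of 84. In the other direction, the 144 genes became 250 with a pseudocount of 0.1 FPKM, 55 with 5 FPKM, 166 without a filter, 73 with the filter at 5 FPKM, 158 with equal medians, 122 among genes that no table lacks and 72 at a gap of 2. At a gap of 1 they were 327, fewer than the 340 of the described direction, whereas they were more at each other setting. All 84 were also found with 0.1 FPKM. The 10 genes found with 5 FPKM were also found with 0.1 FPKM and with equal medians. Of these 10, 7 had a mean of at least 5 FPKM and 6 were listed in all 4 tables. The others were listed at 0 with control in preovulatory cells and with FOXL2 in prehierarchical cells, so their place rests on absences. Among them, ENSGALG00000027113 was listed in 1 table only, at 28.7 FPKM, and counts among the 7. Of the original 84 genes, 17 in place of 11 were lower in preovulatory cells with both plasmids once the medians were set equal. The phase counts with equal medians were added after the data were seen. Over all genes past the filter, the FOXL2 libraries had medians of 18.57 FPKM in preovulatory and 15.11 FPKM in prehierarchical cells. Setting them equal takes the same amount off every phase ratio with FOXL2, so ratios just above 0 fall below it. No paired analysis was possible because each group has 1 library, and no library could be left out for the same reason.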
